A study of Mus musculus with 18 samples.

Results

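The 10 genes described here encode the core of the G1/S switch, namely the D cyclins Ccnd1, Ccnd2 and Ccnd3, the E cyclins Ccne1 and Ccne2, the kinases Cdk4, Cdk6 and Cdk2, the pocket protein Rb1 and the transcription factor E2f1. They were chosen by name for their role in S phase entry, as 10 of the 55453 gene symbols in the deposited count table, and all 10 were among the 16170 genes with enough counts to test. In this switch, D cyclins bind Cdk4 or Cdk6 and start to phosphorylate the Rb protein, which in its unphosphorylated form holds E2f factors inactive. Released E2f1 drives transcription of E cyclins and of the DNA replication genes, and E cyclins with Cdk2 complete Rb phosphorylation and open S phase. Cardiac fibroblasts divide in the newborn heart and leave the cycle as the heart matures, and they enter it again after injury.

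Bulk RNA sequencing was done on GFP+ cells sorted from C57BL/6J pups carrying Tcf21-MerCreMer and Rosa-mTmG, in which tamoxifen given at P1 switched the Tcf21 lineage from membrane tdTomato to membrane GFP. All 6 groups carried both alleles and received tamoxifen, with 3 libraries in each. The baseline groups were un-manipulated pups at P2 or P10, and the other groups had apical resection or sham surgery at P2 or P10 and were collected 3 days later, at P5 or P13. The groups are called P2 baseline, P2 sham, P2 resected, P10 baseline, P10 sham and P10 resected, and the 3 P2 groups against the 3 P10 groups form the comparison of the regenerative with the non-regenerative window. The labels give neither the number of pups nor the sex behind a library, so p-values measure the spread between libraries. Cells labelled at P1 include whatever later arises from them, and hearts of later stages were digested for longer.

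Library totals ran from 10462737 to 22980554 counted reads. Levels are given as CPM, the counts per 1000000 reads of a library size scaled by TMM, a normalization over the bulk of genes. The labelled cell type was present in every library, with Tcf21 at 203 to 447 CPM and Pdgfra at 256 to 878 CPM. Markers of other cells were also read, and their summed level per library was 152 to 1430 CPM for 9 cardiomyocyte genes, 7.76 to 976 CPM for 10 macrophage genes and 44464 to 103850 CPM for 8 fibroblast genes. In bulk RNA, fewer cells of a kind and less RNA per cell cannot be told apart. A difference was called where edgeR's quasi-likelihood test gave a Benjamini-Hochberg adjusted p under 0.05 over all genes tested, and all fold changes are on the log2 scale with their standard error (SE).

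Between the windows, 7 of the 10 genes were lower in the 9 P10 libraries than in the 9 P2 libraries, and none was higher. The called genes were Ccnd1, Ccne1, Ccne2, Cdk4, Cdk6, Cdk2 and E2f1, whereas Ccnd2, Ccnd3 and Rb1 were not called. Over all genes tested, 13.5% were called in this comparison in either direction and 6.39% were lower. The median log2 fold change was -0.78 for the 10 genes and -0.06 for all genes tested. Ccnd1, Ccne1, Ccne2 and E2f1 had no overlap between the 9 P10 and the 9 P2 libraries, each being lower at P10, and 1.36% of all genes tested were separated in that direction. Without the 3 libraries richest in long transcripts, described further on, 8 were called, Ccnd2 (-0.52, adjusted p = 0.00904) beside the other 7, and 22.5% of all genes were called in that fit.

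**Figure D1:**
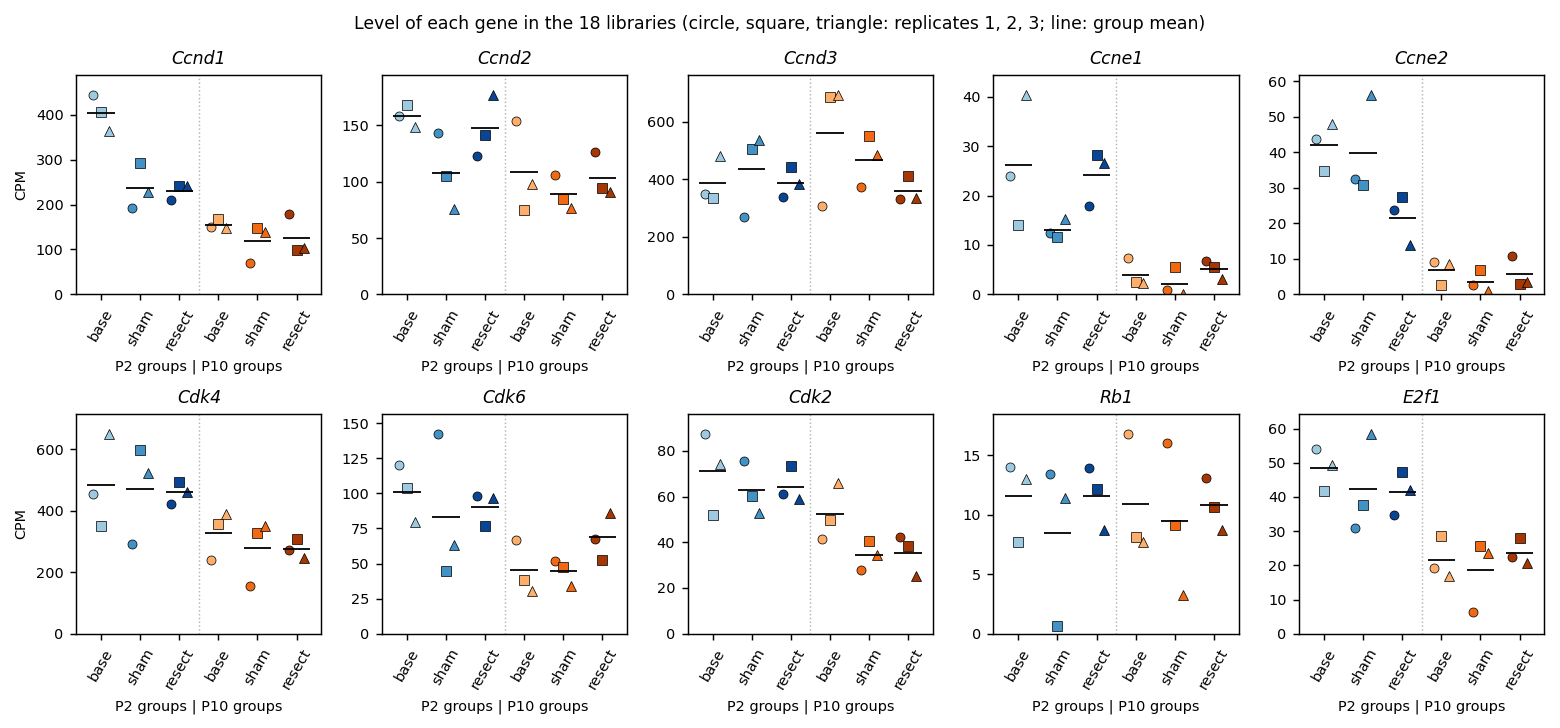
Level of each of the 10 genes in CPM (vertical axes, from 0) in the 18 libraries, with the 3 P2 groups left of the dotted line and the 3 P10 groups right of it. Points are libraries, with circles, squares and triangles for replicates 1, 2 and 3, and lines are group means. The points of Ccnd1, Ccne1, Ccne2 and E2f1 at P10 all lie below those at P2, while those of Ccnd3 and Rb1 overlap.

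Ccnd1, the D cyclin that responds most directly to growth factor signals, lies at chr7:144929931-144939925 on the minus strand of GRCm38. At P2, Ccnd1 was at 445, 405 and 363 CPM in the baseline libraries, 192, 293 and 228 CPM in the sham libraries, and 210, 241 and 241 CPM in the resected libraries. At P10, Ccnd1 was at 149, 168 and 148 CPM at baseline, 70.3, 149 and 139 CPM after sham surgery, and 179, 97.9 and 102 CPM after resection. The 3 P2 baseline libraries stood above all others, and the lowest P2 library (192 CPM) stood above the highest P10 library (179 CPM). Between the windows Ccnd1 was 2.12-fold lower at P10, with a log2 fold change of -1.08 ± 0.16 (SE, n = 9 against 9 libraries, edgeR adjusted p = 0.000192).

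Ccnd1 was also the D cyclin whose level differed most between P2 baseline and P2 sham, that is, over 3 days that include surgery. The mean was 405 ± 41.0 CPM (SD, n = 3) at baseline and 238 ± 51.1 CPM (SD, n = 3) after sham surgery, without overlap between the libraries. Ccnd2 did not overlap either (-0.55 ± 0.28, edgeR adjusted p = 0.673), and 5.47% of all genes tested were separated downward. The log2 fold change of Ccnd1 was -0.77 ± 0.28, with an unadjusted p of 0.013 and an edgeR adjusted p of 0.567, so that it was not called. In that comparison 0 of the 10 genes were called by edgeR, as were 0% of all genes tested, of which 1229 (7.6%) had an unadjusted p under 0.05, and DESeq2 called 180 (1.09%). Of the 10, 1 had an unadjusted p under 0.05 and DESeq2 called 0. The order of group means for Ccnd1 was P2 baseline, P2 sham, P2 resected, P10 baseline, P10 resected and P10 sham. Libraries of neighbours in this order overlapped except between P2 baseline and P2 sham and between P2 resected and P10 baseline.

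Ccnd2, which partners the same kinases, lies at chr6:127125162-127152193 on the minus strand. At P2, Ccnd2 was at 158, 168 and 148 CPM at baseline, 143, 105 and 76.2 CPM after sham surgery, and 123, 142 and 177 CPM after resection. At P10, Ccnd2 was at 154, 74.9 and 97.9 CPM at baseline, 106, 84.9 and 76.7 CPM after sham surgery, and 126, 94.1 and 90.6 CPM after resection. The windows overlapped, with all P10 libraries but P10 baseline replicate 2 (74.9 CPM) above the lowest P2 library (76.2 CPM), and P10 baseline replicate 1 reached the level of the P2 baseline libraries. The Ccnd2 log2 fold change between the windows was -0.44 ± 0.16 (edgeR adjusted p = 0.0775). It passed the threshold when P10 baseline replicate 1 was left out (-0.55, adjusted p = 0.0156) or P2 sham replicate 3 was left out (-0.51, adjusted p = 0.0462), and also with limma-voom (-0.49, adjusted p = 0.00821), the replicate number as a block (-0.47, adjusted p = 0.0347) or a term for length dependence (-0.44, adjusted p = 0.0236).

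Ccnd3, the remaining D cyclin, lies at chr17:47505051-47599691 on the plus strand and was not called in either direction. At P2, Ccnd3 was at 347, 335 and 481 CPM at baseline, 269, 503 and 535 CPM after sham surgery, and 338, 443 and 382 CPM after resection. At P10, Ccnd3 was at 308, 684 and 694 CPM at baseline, 372, 548 and 485 CPM after sham surgery, and 333, 410 and 334 CPM after resection. P10 baseline replicates 2 and 3 were the highest of the 18 libraries, and replicate 1 of that group was among the lowest. Between the windows the log2 fold change was 0.18 ± 0.17 (edgeR adjusted p = 0.562), with a 95% interval from -0.19 to 0.54.

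Per length, the make-up of the D cyclins differed between the windows, with a lower mean share of Ccnd1 and a higher mean share of Ccnd3 at P10. Dividing CPM by the length of each gene's principal transcript (3.74 kb for Ccnd1, 6.33 kb for Ccnd2 and 2.113 kb for Ccnd3), Ccnd1 made up 26.7 ± 6.76% (SD, n = 9) of the summed D cyclin level at P2 and 13.6 ± 4.03% at P10. The share of Ccnd3 was 65.5 ± 7.93% at P2 and 80.0 ± 6.16% at P10. Ccnd2 held 7.76 ± 2.39% and 6.40 ± 2.76%. Reads were counted over all exons, and with CPM divided by all annotated exon bases instead (4.709 kb for Ccnd1, 9.409 kb for Ccnd2 and 8.775 kb for Ccnd3), Ccnd1 held 49.6 ± 7.43% at P2 and 30.9 ± 6.26% at P10, and Ccnd3 held 38.1 ± 8.14% and 56.8 ± 8.73%. Which D cyclin had the larger share at P2 thus depends on the length used, while the difference between the windows had the same sign with both. Per principal transcript, the Ccnd1 share was highest at P2 baseline, where its 3 libraries gave 38.6%, 36.9% and 27.9%, and the windows overlapped in P10 resected replicate 1 (21.2%) and P10 baseline replicate 1, which lay above P2 sham replicate 3 (18.7%). The summed level of the 3 D cyclins was 291 ± 47.4 CPM per kb at P2 and 271 ± 72.6 CPM per kb at P10, and the sums overlapped. Per kb of all exons the sums were 122 ± 22.4 and 91.8 ± 20.0 CPM per kb. These shares are a description and were not tested.

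**Figure D2:**
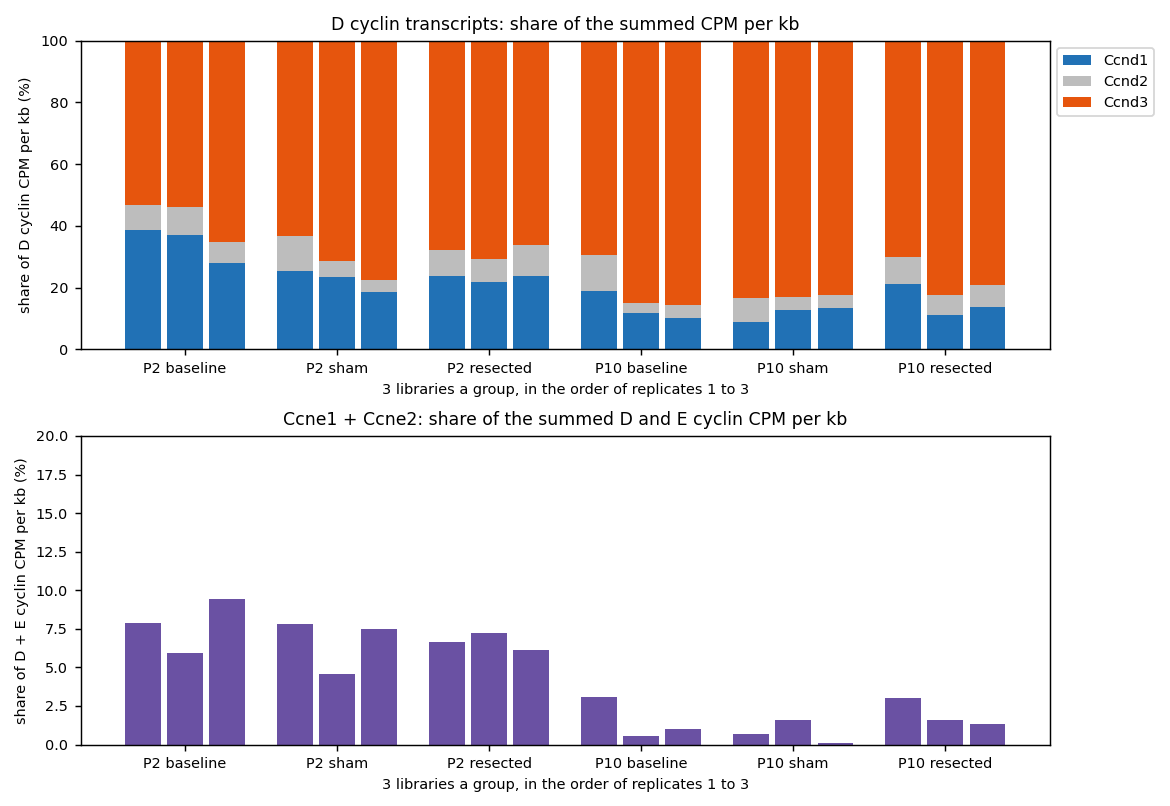
Upper panel: share of Ccnd1, Ccnd2 and Ccnd3 in their summed CPM per kb of principal transcript (percent) in each of the 18 libraries, 3 bars a group. Lower panel: share of Ccne1 and Ccne2 together in the summed CPM per kb of the 5 cyclins (percent). The share of E cyclins was 4.59% to 9.43% in the P2 libraries and 0.124% to 3.06% in the P10 libraries. Per kb of all exons, which is not drawn, it was 9.15% to 16.4% and 0.319% to 6.00%.

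The E cyclins had the largest differences of the 10 genes. Ccne1, which binds Cdk2 and is itself a target of E2f factors, lies at chr7:38097984-38107534 on the minus strand. At P2, Ccne1 was at 23.9, 14.1 and 40.5 CPM at baseline, 12.4, 11.5 and 15.3 CPM after sham surgery, and 17.9, 28.2 and 26.6 CPM after resection. At P10, Ccne1 was at 7.28, 2.51 and 2.27 CPM at baseline, 0.949, 5.56 and 0 CPM after sham surgery, and 6.66, 5.59 and 3.11 CPM after resection. P10 sham replicate 3 had no count, which at its depth allows up to 0.141 CPM (3 counts, counting error only). All 9 P10 libraries lay below all 9 P2 libraries, and the log2 fold change between the windows was -2.51 ± 0.53 (5.71-fold lower, edgeR adjusted p = 0.00385). It was -3.24 without P10 sham replicate 2, the highest library of that group, and still called.

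Ccne2, the second E cyclin, lies at chr4:11191351-11204779 on the plus strand. At P2, Ccne2 was at 43.7, 34.6 and 48.1 CPM at baseline, 32.5, 30.8 and 56.3 CPM after sham surgery, and 23.7, 27.3 and 13.8 CPM after resection. At P10, Ccne2 was at 8.98, 2.62 and 8.68 CPM at baseline, 2.75, 6.92 and 1.04 CPM after sham surgery, and 10.9, 2.99 and 3.57 CPM after resection. The lowest P2 library was P2 resected replicate 3 (13.8 CPM) and the highest P10 library was P10 resected replicate 1 (10.9 CPM), so the windows did not overlap. The Ccne2 log2 fold change was -2.67 ± 0.37 (6.37-fold lower, edgeR adjusted p = 9.24e-05). Together, Ccne1 and Ccne2 summed to 22.1 ± 6.70 CPM per kb of principal transcript (SD, n = 9) at P2 and 3.68 ± 2.27 at P10. Per kb of all exons the sums were 17.8 ± 5.37 and 2.96 ± 1.82 CPM per kb.

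Of the kinases, Cdk4 partners the D cyclins and lies at chr10:127063534-127067920 on the plus strand. At P2, Cdk4 was at 453, 351 and 649 CPM at baseline, 290, 597 and 521 CPM after sham surgery, and 422, 494 and 460 CPM after resection. At P10, Cdk4 was at 239, 355 and 389 CPM at baseline, 157, 328 and 349 CPM after sham surgery, and 273, 309 and 246 CPM after resection. The windows overlapped because P2 sham replicate 1 (290 CPM) and P2 baseline replicate 2 (351 CPM) lay within the P10 range. The Cdk4 log2 fold change was -0.69 ± 0.18 (1.61-fold lower, edgeR adjusted p = 0.0182).

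Cdk6, the other kinase of the D cyclins, lies at chr5:3341485-3531008 on the plus strand. At P2, Cdk6 was at 120, 104 and 79.3 CPM at baseline, 142, 44.4 and 63.1 CPM after sham surgery, and 98.0, 77.1 and 96.5 CPM after resection. At P10, Cdk6 was at 66.6, 38.5 and 30.2 CPM at baseline, 51.9, 47.5 and 33.7 CPM after sham surgery, and 67.5, 52.4 and 86.2 CPM after resection. The P2 sham group held both the highest and the lowest P2 library. The Cdk6 log2 fold change between the windows was -0.82 ± 0.22 (1.77-fold lower, edgeR adjusted p = 0.0174). Per length, Cdk6 made up 3.71 ± 2.03% (SD, n = 9) of the summed Cdk4 and Cdk6 level at P2 and 3.42 ± 1.72% at P10, so Cdk4 was the main transcript of the pair in both windows.

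Cdk2, the kinase of the E cyclins, lies at chr10:128697939-128705031 on the minus strand. At P2, Cdk2 was at 87.4, 52.1 and 74.1 CPM at baseline, 75.4, 60.1 and 52.9 CPM after sham surgery, and 61.1, 73.2 and 58.8 CPM after resection. At P10, Cdk2 was at 41.6, 49.8 and 65.8 CPM at baseline, 27.7, 40.6 and 34.6 CPM after sham surgery, and 42.1, 38.3 and 25.0 CPM after resection. P10 baseline replicate 3 (65.8 CPM) was the P10 library that overlapped the P2 range. The Cdk2 log2 fold change was -0.73 ± 0.16 (1.66-fold lower, edgeR adjusted p = 0.00461).

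Rb1, the pocket protein that restrains E2f factors, lies at chr14:73183673-73325822 on the minus strand and was the gene of the 10 with the fewest counts, 3423 in the 18 libraries together. At P2, Rb1 was at 14.0, 7.72 and 13.0 CPM at baseline, 13.4, 0.646 and 11.4 CPM after sham surgery, and 13.9, 12.1 and 8.70 CPM after resection. At P10, Rb1 was at 16.8, 8.13 and 7.70 CPM at baseline, 16.0, 9.12 and 3.25 CPM after sham surgery, and 13.1, 10.6 and 8.70 CPM after resection. P2 sham replicate 2 had only 14 counts, and the windows overlapped over nearly their whole range. The Rb1 log2 fold change was -0.01 ± 0.42 (edgeR adjusted p = 1.00), with a 95% interval from -0.89 to 0.87, which leaves room for differences as large as those of Cdk4 and Cdk2.

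E2f1, an activating factor of the family, lies at chr2:154559407-154569892 on the minus strand. At P2, E2f1 was at 54.0, 41.8 and 49.2 CPM at baseline, 31.1, 37.5 and 58.5 CPM after sham surgery, and 34.7, 47.3 and 42.2 CPM after resection. At P10, E2f1 was at 19.4, 28.6 and 16.9 CPM at baseline, 6.44, 25.5 and 23.6 CPM after sham surgery, and 22.5, 28.0 and 20.6 CPM after resection. The lowest P2 library (31.1 CPM) stood above the highest P10 library (28.6 CPM). The E2f1 log2 fold change was -1.05 ± 0.23 (2.07-fold lower, edgeR adjusted p = 0.00481). Ordered by group mean, E2f1 and Cdk4 had 1 gap between neighbouring groups, from the lowest P2 to the highest P10 group. For Ccne1 and Ccne2 a further gap stood within the P2 groups, while for Ccnd2, Ccnd3, Cdk6, Cdk2 and Rb1 all neighbours overlapped.

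Start-site sequence is shown for 3 of the genes that were lower at P10, and for Ccnd3 as a D cyclin that was not called. RefSeq gave windows for 6 of the 10 genes (Ccnd3, Ccne1, Cdk2, Cdk4, Cdk6 and E2f1). The start sites for Cdk6 and E2f1 lay 2408 and 466 bases inside the annotated gene, and those windows are not shown, nor is that of a second Ccnd3 start site 88416 bases inside the gene. The others are the 250 bases before the start site, on the strand of the gene in GRCm38.p6, with the GC box (GGGCGG or its complement CCGCCC) and the E2f core (TTNNCGC, each N being C or G, and its complement) in capitals.
Ccne1: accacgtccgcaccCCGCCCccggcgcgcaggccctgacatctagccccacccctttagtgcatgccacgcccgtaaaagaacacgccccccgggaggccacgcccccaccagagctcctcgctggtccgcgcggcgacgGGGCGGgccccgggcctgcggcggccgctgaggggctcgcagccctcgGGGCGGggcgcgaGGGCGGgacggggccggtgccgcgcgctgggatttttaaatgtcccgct
Cdk2: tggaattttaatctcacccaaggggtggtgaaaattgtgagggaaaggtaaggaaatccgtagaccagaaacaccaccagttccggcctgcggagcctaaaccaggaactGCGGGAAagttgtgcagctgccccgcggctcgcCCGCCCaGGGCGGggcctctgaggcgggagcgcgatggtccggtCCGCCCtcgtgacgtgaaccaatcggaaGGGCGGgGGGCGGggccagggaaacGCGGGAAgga
Cdk4: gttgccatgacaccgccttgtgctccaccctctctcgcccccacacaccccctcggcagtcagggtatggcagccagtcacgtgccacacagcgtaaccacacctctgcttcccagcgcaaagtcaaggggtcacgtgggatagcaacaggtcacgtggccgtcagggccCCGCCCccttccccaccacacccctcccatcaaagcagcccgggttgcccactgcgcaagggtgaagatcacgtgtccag
Ccnd3: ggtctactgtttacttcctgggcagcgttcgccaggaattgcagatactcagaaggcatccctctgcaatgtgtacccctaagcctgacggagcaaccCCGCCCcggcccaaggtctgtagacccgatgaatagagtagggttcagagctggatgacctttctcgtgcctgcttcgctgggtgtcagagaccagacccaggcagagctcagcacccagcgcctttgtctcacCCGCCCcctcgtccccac

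These windows are chr7:38107491-38107740 for Ccne1, chr10:128705052-128705301 for Cdk2, chr10:127063285-127063534 for Cdk4 and chr17:47504801-47505050 for Ccnd3. GC boxes numbered 4, 5, 1 and 2 in that order, and 32.7% of all 32851 windows of this length held at least 1. The E2f core was found 2 times, in the Cdk2 window, beginning 140 and 10 bases before the start site, and 7.89% of all windows held it. A match of letters is a description and not a binding site, and the absence of these letters says nothing of other stretches of the gene.

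Per kb of principal transcript, Cdk4 and Ccnd3 had the highest mean levels of the 10 genes in all 6 groups, with Cdk4 first in the P2 groups and Ccnd3 first in the P10 groups, followed by Ccnd1. Per kb of all exons, Cdk4 was first in all 6 groups, followed by Ccnd1 and then Ccnd3 in the P2 groups and by Ccnd3 and then Ccnd1 in the P10 groups. Per principal transcript, the mean in P2 baseline was 236 ± 73.9 CPM per kb for Cdk4 and 183 ± 38.3 CPM per kb for Ccnd3, which overlapped. In P10 baseline it was 160 ± 38.3 and 266 ± 104 CPM per kb (SD, n = 3), which also overlapped. In P10 baseline the means per kb of all exons were 101 ± 24.2 CPM per kb for Cdk4 and 64.1 ± 25.1 for Ccnd3. With either length Rb1 was last in the 3 P2 groups (2.49 ± 0.729 CPM per kb of principal transcript at P2 baseline). At P10 the E cyclins lay near it, with 2.34 ± 1.10 CPM per kb for Rb1, 2.25 ± 1.19 for Ccne2 and 2.01 ± 1.41 for Ccne1 at P10 baseline.

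Taken pair by pair, the age comparisons with 3 libraries a side called fewer of the genes. At baseline, Ccnd1 (-1.38 ± 0.28, edgeR adjusted p = 0.00966) and Ccne2 (-2.64 ± 0.64, adjusted p = 0.0247) were lower at P10, that is 2 of 10, against 4.38% of all genes tested called in either direction and 1.68% lower. Of the others, Ccne1 was at -2.69 ± 0.93 (adjusted p = 0.116), Cdk6 at -1.16 ± 0.38 (adjusted p = 0.0948) and E2f1 at -1.16 ± 0.40 (adjusted p = 0.116), each without overlap between the 3 P10 and the 3 P2 libraries. Without P10 baseline replicate 1, Ccne1 was at -3.44 and not called, and Cdk6 at -1.56 (adjusted p = 0.029) and called. In all, 5 of the 10 were separated downward, as were 12.1% of all genes tested. DESeq2 called 4 of the 10 in this comparison (10.5% of all genes). limma-voom with quality weights called 7 of the 10 and 22.5% of all genes, with 6 of the 7 lower at P10 and Ccnd3 higher (0.83, adjusted p = 0.00701). The Ccne2 call was lost when P10 baseline replicate 2 or 3, or any P2 baseline library, was left out, with adjusted p from 0.0505 to 0.121.

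After sham surgery, Ccne2 was 11.2-fold lower at P13 than at P5 (-3.49 ± 0.67, edgeR adjusted p = 0.00616), the 1 call among the 10 genes, with 3.18% of all genes tested called and 1.65% lower. Ccnd1 was at -0.99 ± 0.28 (adjusted p = 0.0623), and 5 of the 10 genes, namely Ccnd1, Ccne1, Ccne2, Cdk2 and E2f1, had no overlap between the groups, against 7.61% of all genes tested separated downward. DESeq2 called these same 5 genes, and 8.07% of all genes. With the sham libraries alone in the fit, the Ccne2 value was -3.49 and its adjusted p rose to 0.0719. Without P10 sham replicate 2 the value was -4.39, and the gene stayed called without any 1 library.

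After resection, edgeR called 0 of the 10 genes between P13 and P5, with 0.86% of all genes tested called. All 10 had a negative log2 fold change, 5 had an unadjusted p under 0.05 (8.77% of all genes tested did), 6 had no overlap between the groups (12.7% of all genes tested were separated downward), and the median was -0.77 against -0.04 for all genes tested. The largest was Ccne1 at -2.24 ± 0.91 (adjusted p = 0.436), followed by Ccne2 at -1.88 ± 0.62 (adjusted p = 0.241, and -2.72 without P10 resected replicate 1), Cdk2 at -0.87 ± 0.28 (adjusted p = 0.206) and Ccnd1 at -0.87 ± 0.28 (adjusted p = 0.214). DESeq2 called 1 of the 10, Cdk2 (adjusted p = 0.0498), and 3.63% of all genes, and limma-voom called 5 of the 10, all lower, and 5.62% of all genes. These 3 comparisons use the libraries of the comparison between windows and are not independent of it.

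**Figure D3:**
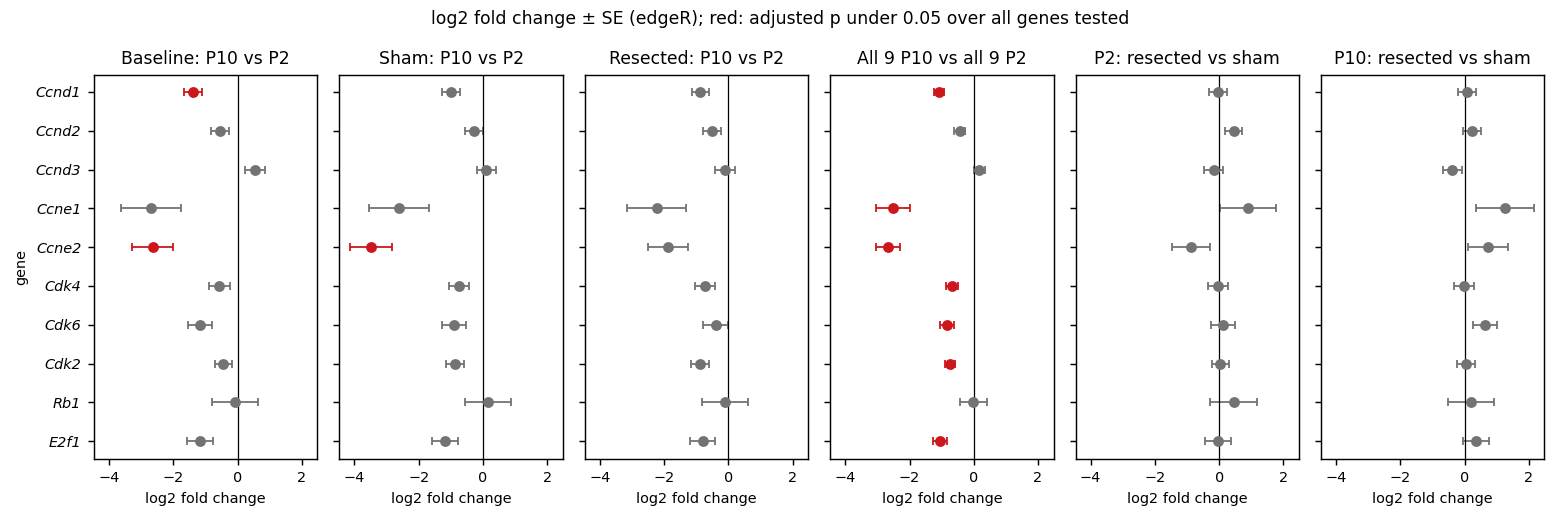
log2 fold change of each gene (horizontal axes) ± SE from edgeR in 6 comparisons, with 3 libraries a side, or 9 in the fourth panel. Red points had an adjusted p under 0.05 over all genes tested. In the age comparisons the points of the E cyclins lie furthest to the left, and in the comparisons of resection with sham no point is red.

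Resection was compared with sham surgery at the same age and time. At P2, 0 of the 10 genes were called by edgeR, as were 0% of all genes tested, of which 730 (4.51%) had an unadjusted p under 0.05, and DESeq2 called 34 (0.2%). None of the 10 had an unadjusted p under 0.05, and DESeq2 and limma-voom called 0 of them. The E cyclins had values of opposite sign. Ccne1 was at 17.9, 28.2 and 26.6 CPM after resection against 12.4, 11.5 and 15.3 CPM after sham surgery (0.89 ± 0.87, adjusted p = 1). Ccne2 was at 23.7, 27.3 and 13.8 CPM against 32.5, 30.8 and 56.3 CPM (-0.88 ± 0.60, adjusted p = 1). Neither overlapped between the groups, a separation that 5.62% of all genes tested showed upward and 2.85% downward. For the remaining 8 genes the libraries of the groups overlapped.

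At P10, again 0 of the 10 genes were called between resection and sham by edgeR, DESeq2 or limma-voom, with 0% of all genes tested called by edgeR. Over all genes 661 (4.09%) had an unadjusted p under 0.05 and DESeq2 called 42 (0.206%), and none of the 10 was among the former. Cdk6 was the 1 gene whose libraries did not overlap, at 67.5, 52.4 and 86.2 CPM after resection and 51.9, 47.5 and 33.7 CPM after sham surgery (0.63 ± 0.38, adjusted p = 1), and 5.63% of all genes tested were separated upward. Ccne1 had the largest positive value (1.26 ± 0.91, 95% interval -0.65 to 3.17). Ccne2 followed (0.73 ± 0.62), and was -0.11 without P10 resected replicate 1. Ccnd3 had the most negative value (-0.38 ± 0.30). The sham value of Ccne1 rests on 0.949, 5.56 and 0 CPM, and without P10 sham replicate 2 the log2 fold change was 3.43 (adjusted p = 0.698).

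The resection response at P10 minus that at P2 was tested as an interaction, which is also the test of whether the age difference after resection differed from that after sham surgery. edgeR and DESeq2 called 0 of the 10 genes, with 0% of all genes tested called by edgeR, 465 genes (2.88%) at an unadjusted p under 0.05 and 26 (0.115%) called by DESeq2. None of the 10 had an unadjusted p under 0.05. Ccne2 had the largest value (1.61 ± 0.86, unadjusted p = 0.0795, adjusted p = 1.00), from a negative response at P2 and a positive one at P10, and it was 0.77 to 2.51 with 1 library left out. Cdk6 was at 0.51 ± 0.53 and Ccne1 at 0.37 ± 1.24. With 1 library left out they were -0.13 to 0.83 and -0.23 to 2.54. The interaction uses the libraries of both comparisons of resection with sham, so its values are not independent of theirs.

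Sham surgery was also set against baseline at P10, where the groups differ by surgery and by 3 days of age, which cannot be told apart. edgeR called 0 of the 10 genes, with 0.00618% of all genes tested called (1 gene). DESeq2 called 0 of the 10 and 1.01% of all genes, and 1 of the 10 had an unadjusted p under 0.05, as had 7.4% of all genes. This was Cdk2, which had no overlap between P10 sham (27.7, 40.6 and 34.6 CPM) and P10 baseline (41.6, 49.8 and 65.8 CPM), at -0.61 ± 0.28 (adjusted p = 0.663), and 4.69% of all genes tested were separated downward. All 10 genes had a negative log2 fold change, with a median of -0.28 against -0.02 for all genes tested. All 8 mural markers (median -0.43) and 8 of 9 cardiomyocyte markers (median -0.63) were negative too. By contrast, 8 of 10 macrophage markers (median 0.84) and 5 of 6 epicardial markers (median 2.25) were positive. edgeR called none of these markers, and the part of these cells was not tested. Across the step between the windows, from P2 sham to P10 baseline, edgeR called 0 of the 10 genes against 1.32% of all genes tested, 4 had an unadjusted p under 0.05 (14.9% of all genes), and DESeq2 called 1 (5.9% of all genes), which was Ccne2 (-2.56 ± 0.64, edgeR adjusted p = 0.0542).

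Genes around the 10 in the pathway were read from lists, and their counts between the windows stand against 6.39% of all genes tested called lower and 7.11% called higher. Of 24 genes that E2f factors are known to induce, 23 were lower at P10 between the windows and none was higher. Of the 24, 17 had no overlap between the 9 and 9 libraries, against 1.36% of all genes tested separated downward. Their median log2 fold change was -1.71, against -0.06 for all genes tested. Cdc6, which loads the replicative helicase, was at -2.61 ± 0.44 (edgeR adjusted p = 0.000549). The S phase cyclin Ccna2 was at -2.59 ± 0.26 (adjusted p = 4.11e-06) and the mitotic kinase Cdk1 at -2.56 ± 0.27 (adjusted p = 5.58e-06). The gene not called was Orc1 (-2.26 ± 0.77, adjusted p = 0.0609), a subunit of the origin recognition complex.

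The summed CPM of these 24 E2f targets was 1630 to 2615 in the P2 libraries and 449 to 1011 in the P10 libraries, which did not overlap. In the separate age comparisons, 16 of the 24 were lower between the baseline groups (1.68% of all genes tested), 21 between the sham groups (1.65%) and 8 between the resected groups (0.235%). Between resection and sham at P10 none was called, 7 had an unadjusted p under 0.05 (4.09% of all genes tested did) and 23 of 24 had a positive log2 fold change (median 0.65 against 0.02 for all genes tested), and at P2 the median was -0.05 and 11 of 24 were positive. In the test of the response at P10 minus that at P2, none of the 24 was called and 3 had an unadjusted p under 0.05, as had 2.88% of all genes tested (median 0.63). All 8 late cell cycle genes were lower at P10 between the windows (median -2.62), led by the proliferation marker Mki67 (-3.23 ± 0.62, adjusted p = 0.00166, and -4.17 without P10 baseline replicate 1), the kinetochore gene Cenpf (-3.22 ± 0.54, adjusted p = 0.000543) and the checkpoint kinase Bub1 (-3.06 ± 0.59, adjusted p = 0.00179, and -5.46 without P10 sham replicate 2). Of these 8, 6 had no overlap between the windows, as had 1.36% of all genes tested in that direction. Mki67 overlapped (lowest P2 library 33.3 CPM, highest P10 library 90.0 CPM), as did Cenpf (12.45 and 28.5 CPM). Between resection and sham at P10 all 8 had a positive log2 fold change (median 1.21), with 5 at an unadjusted p under 0.05, against the same 4.09% of all genes, and none called. These genes were also low in P10 sham against P10 baseline, without a call. There 7 of the 8 (median -0.98) and 19 of the 24 E2f targets (median -0.54) had a negative value, against a median of -0.02 for all genes tested. For resection against sham at P10, all 10 macrophage markers had a positive value (median 1.01), as did all 6 epicardial markers (median 2.18) and 6 of 8 endothelial markers (median 1.27), none of them called. At P2 all 10 macrophage markers (median 1.215), 7 of 8 endothelial (median 0.49) and 3 of 6 epicardial markers (median -0.15) were positive. There 1 of the 8 late cell cycle genes was positive (median -0.10), and none of these genes was called. The part of these cells in these values was not tested.

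Of 11 other pocket proteins, E2f and Dp factors, 6 were lower at P10 between the windows and none was higher. E2f2, an activator like E2f1, was at -3.25 ± 0.49 (adjusted p = 0.000208) as the mean of the groups' log values, among which P10 baseline had 8 counts in 3 libraries, and its mean level was 8.34 CPM at P2 and 1.38 CPM at P10. The repressors E2f8 and E2f7, which E2f1 induces, were at -2.81 ± 0.52 (adjusted p = 0.00133) and -2.57 ± 0.46 (adjusted p = 0.000905). Rbl1, the pocket protein p107, was also lower (-2.12 ± 0.28, adjusted p = 4.93e-05), as were E2f6 and the dimer partner Tfdp1. Rbl2, the pocket protein p130 of resting cells, was at 0.39 ± 0.22 (adjusted p = 0.254), and the repressor E2f4 at 0.05 ± 0.14 (adjusted p = 0.867).

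Of 6 CDK inhibitors tested, Cdkn1a (p21) was higher at P10 between the windows (0.63 ± 0.17, adjusted p = 0.0221), and Cdkn2c (-0.77 ± 0.22, adjusted p = 0.0245) and Cdkn2d (-0.53 ± 0.16, adjusted p = 0.0348), which inhibit Cdk4 and Cdk6, were lower. These differences were uneven over the pairs of groups. By group mean (P2, then P10), Cdkn1a was 60.6 and 130 CPM at baseline, 85.8 and 96.6 for sham, and 82.4 and 126 for resected. Cdkn2c was 47.3 and 35.7 CPM at baseline, 83.7 and 32.4 for sham, and 58.9 and 40.6 for resected. Cdkn2d was 44.6 and 40.9 CPM at baseline, 76.8 and 39.5 for sham, and 61.8 and 43.6 for resected. Cdkn2a had too few counts to test. Among 7 genes of cyclin turnover, Skp2, the F-box protein that marks p27 for degradation (-1.69 ± 0.31, adjusted p = 0.00126), and its cofactor Cks1b (-0.71 ± 0.15, adjusted p = 0.00393) were lower. Of 5 CDK activators and chaperones, Cdc25a, the phosphatase that activates Cdk2, was lower (-0.55 ± 0.15, adjusted p = 0.0221). Of 6 MuvB complex genes and B-Myb, Mybl2 (-2.14 ± 0.37, adjusted p = 0.000712) and Lin9 (-1.09 ± 0.34, adjusted p = 0.0405) were lower. Mybl2 and Rbl1 also stand in the E2f target list. Some of these calls did not hold without a single library. Of 18 fits that each lacked 1 library, the call was lost in 3 for Cdkn1a, 7 for Cdkn2c, 12 for Cdkn2d, 13 for E2f6, 4 for Cdc25a and 12 for Lin9, with adjusted p of at most 0.0972.

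**Figure D4:**
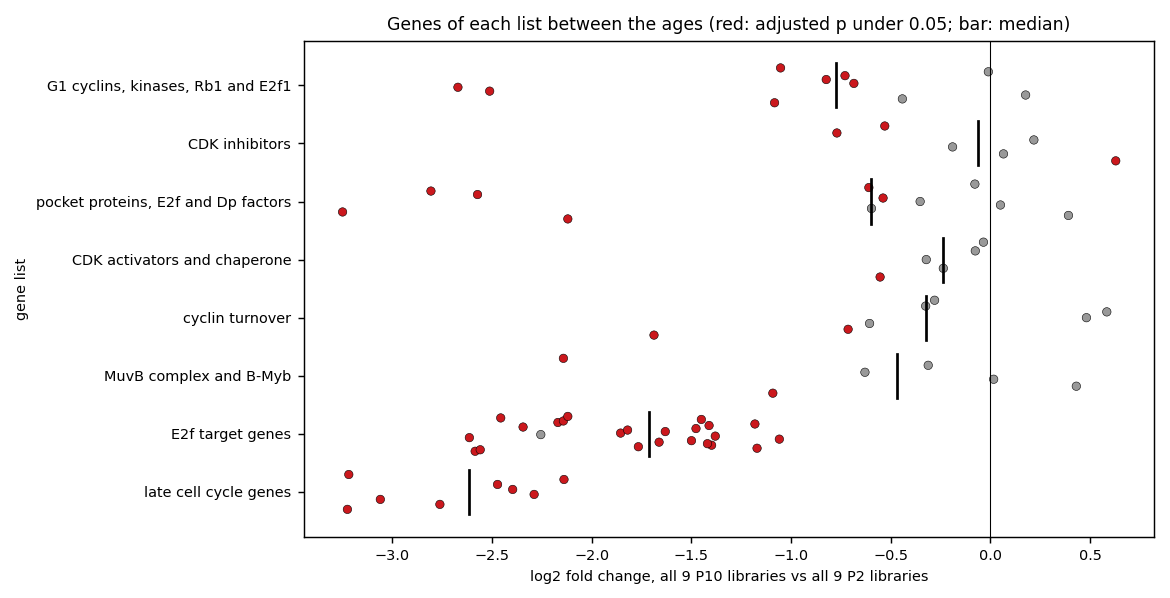
log2 fold change between the 9 P10 and the 9 P2 libraries (horizontal axis) for the genes of each list (rows). Each point is a gene, red where the adjusted p was under 0.05, and bars mark list medians. All 8 late cell cycle genes and 23 of 24 E2f targets are red and left of 0, and Cdkn1a is the red point right of 0.

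Markers of other cells moved with age too, and their counts stand against the same 6.39% lower and 7.11% higher. Of 9 cardiomyocyte markers, 5 were lower at P10 between the windows (Myh7, Nppa, Myl2, Tnnt2 and Actc1) and none was higher, with a summed level of 301 to 1430 CPM in the P2 libraries and 152 to 802 CPM in the P10 libraries. Myh7, a defining gene of immature cardiomyocytes, had no count in the 3 P10 sham libraries, which allows up to 0.141 to 0.194 CPM in each, and the other groups had 0.0331 to 3.27 CPM on average. Of 10 macrophage markers 2 were higher at P10 (Itgam and Cd14), with sums of 7.76 to 387 CPM at P2 and 18.3 to 976 CPM at P10, and Itgam had no count at P2 baseline and P2 sham. Of 8 fibroblast markers, 3 were higher at P10 (Col3a1, Dcn and Lum), with sums of 44464 to 90790 CPM at P2 and 65449 to 103850 CPM at P10. Of 8 mural markers (409 to 1517 CPM in sum), 3 were higher (Myh11, Kcnj8 and Rgs5) and 1 lower (Mcam), and of 8 endothelial (175 to 473 CPM) and 6 epicardial markers (798 to 2096 CPM) none was called. The epicardial genes Wt1 and Upk1b had no count at P10 baseline. The part of these cells in the differences of the 10 genes was not tested.

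Genes with the most similar pattern were listed for each of the 10, as the 3 with the highest Pearson r of log2 CPM over the 18 libraries. The points share age group, library depth and the length dependence described next, so r is a description. For Ccnd1 these were Cdca7 (0.91), Mcm6 (0.908) and Bzw2 (0.907), and for E2f1 they were Ska1 (0.932), Cdc6 (0.929) and Mcm2 (0.922). For Ccne1 they were Ckap2l (0.942), Mastl (0.935) and Spag5 (0.934), and r was 0.267, 0.379 and -0.118 within the 9 P2 libraries and 0.921, 0.903 and 0.937 within the 9 P10 libraries. For Ccne2 they were Pbk (0.948), Efcab11 (0.947) and Arxes2 (0.939), and for Cdk2 Tube1 (0.917), H2afy2 (0.899) and Snrpa1 (0.895). For Ccnd2 they were Gm47087 (0.904), Dock1 (0.882) and Stox2 (0.879), and for Rb1 Mtcp1 (0.906), Rexo5 (0.878) and Robo1 (0.871).

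Cdk4 (Alyref, 0.956, Sae1, 0.943, and Ran, 0.94), Ccnd3 (Sgta, 0.924, Puf60, 0.922, and Phlda3, 0.918) and Cdk6 (Dhx9, 0.933, Slfn9, 0.924, and Tbx20, 0.923) kept their r within both windows, at 0.849 or above. Among the 10 genes themselves, Ccnd3 and Cdk4 had r = 0.903 in the 9 P2 libraries and 0.717 in the 9 P10 libraries, and both ran against Cdk6 (Ccnd3, -0.896 and -0.862, and Cdk4, -0.78 and -0.601).

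This opposition went with a measure of whole libraries. In each library, the deviation of each gene from its group mean was correlated with the log2 of the gene's exon length over 16067 genes. The r was highest in P10 sham replicate 1 (0.224), P2 sham replicate 1 (0.2) and P10 baseline replicate 1 (0.17), and lowest in P2 sham replicate 2 (-0.228) and P10 baseline replicate 3 (-0.172). The 3 highest share the replicate number 1, and their titles carry the number 3, which no other title does, while the replicates numbered 1 of the remaining groups had r of -0.048 to 0.0469. Over the 18 libraries, the deviation of Cdk4 ran against this r (-0.909), as did those of Ccnd3 (-0.772), Ccnd1 (-0.609), E2f1 (-0.504) and Cdk2 (-0.351), whereas those of Cdk6 (0.792), Rb1 (0.67) and Ccnd2 (0.55) ran with it. For Ccne1 and Ccne2 the values were 0.107 and -0.0629. The titles of P10 baseline replicates 2 and 3 end in the letter P, which no other title does. The labels do not say what the title number or this letter stands for, and their part in this measure was not tested. Without the 3 libraries with the highest r, 7 of the 10 genes and 16.8% of all genes were called at baseline, where Cdk6, Ccne1, Ccnd2 and E2f1 were called lower beside Ccnd1 and Ccne2, and Ccnd3 was called higher (0.83, adjusted p = 0.00808), though P10 baseline, P2 sham and P10 sham then held 2 libraries each.

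**Figure D5:**
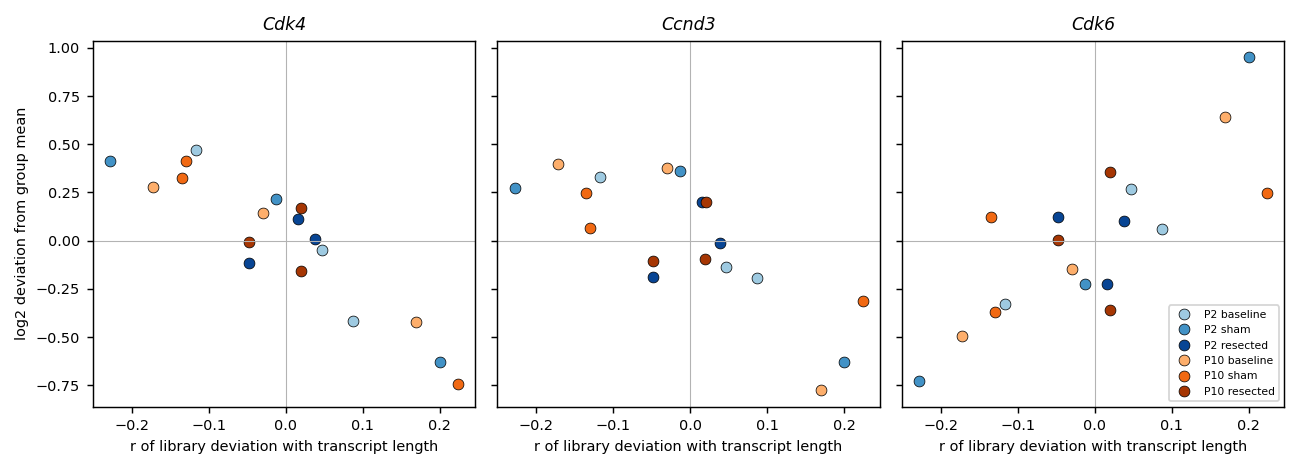
log2 deviation of Cdk4, Ccnd3 and Cdk6 from the group mean (vertical axis) against the correlation of each library's deviations with transcript length (horizontal axis), 1 point per library, coloured by group. The points of Cdk4 and Ccnd3 slope down and those of Cdk6 slope up, with the 3 libraries at 0.17 to 0.224 at the right edge.

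Counting was done without regard to strand, and 8 of the 10 genes share exon bases with a gene on the other strand, E2f1 and Ccne1 being the exceptions. The shared part was 23.4% of exon bases for Ccnd1 (with LTO1), 19.7% for Cdk4 (with Tspan31) and 17.4% for Ccne2 (with Ints8). It was 8.11% and 6.78% for Rb1 (with Rcbtb2 and Lpar6), and under 5% for each partner of Ccnd2, Ccnd3, Cdk6 and Cdk2. Reads within the shared bases cannot be told apart by strand. The authors list no option that counts such a read for several genes, so it may be missing from the counts of the pair. The levels of Rb1, Ccne2, Ccnd1 and Cdk4 are therefore uncertain in their shared bases. The size of this effect was not tested.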

How the data were processed

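Libraries were made from sorted cells with the SMARTer Ultra Low kit and Nextera XT and sequenced single-end. The authors trimmed reads with fastp 0.20.0, aligned them with STAR 2.7.0f to GRCm38.p6 and counted them on exons by gene name with featureCounts of Subread 1.6.4, without strand. The deposited values are raw counts per gene symbol, of 55453 symbols in 18 libraries.

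Here, genes were kept by edgeR's filterByExpr (minimum count 10, minimum total 15), leaving 16170, and scaled by TMM. edgeR 4.0.16 (R 4.3.3) was run as a quasi-likelihood test with 1 mean per group over all 18 libraries and Benjamini-Hochberg adjustment over all genes tested. The window contrast is the mean of the 3 P10 groups minus that of the 3 P2 groups. DESeq2 1.42.0 and limma 3.58.1 (voom with quality weights) were alternatives, and all were tested on simulated counts. SE is the log2 fold change divided by the root of F. In these libraries 3 counts correspond to 0.128 to 0.296 CPM. The 95% intervals are the log2 fold change ± SE times the t quantile at the test's degrees of freedom, and the limit for a count of 0 covers counting error only.

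No replicates were duplicates (r of log2 CPM 0.852 to 0.957, with counts differing beyond sampling noise). Positions, lengths and exon overlaps came from GENCODE M21 on GRCm38, and sequences from RefSeq on GRCm38.p6.

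The 10 genes and all lists were chosen with earlier results of these data known. Of each pathway list, up to 3 called genes per direction with the largest log2 fold change were named, with any sole call, and of the marker lists those that lead a list or are at 0. Orc1, Rbl1, Rbl2, E2f4, E2f6, Tfdp1 and the other called markers fall outside that rule in the window comparison and were named after their values were seen.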

Additional observations from a re-analysis of the deposited data

How the results depend on the processing

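The 7 genes called between the windows were called under all alternatives run, and the count of 7 was 7 to 8 when 1 library was left out and 8 with limma-voom (28.3% of all genes called), the replicate block, the length term (22.6%) or without the 3 libraries richest in long transcripts (22.5%). At baseline the count of 2 became 4 with DESeq2, 7 with limma-voom, 4 without the filter on low counts, and 1 to 3 with 1 library left out, with 1 in fits that called 1.53% to 2.53% of all genes and 3 in the fit without P10 baseline replicate 1, which called 7.04%. After sham surgery the count of 1 became 5 with DESeq2 (8.07% of all genes), 3 with limma-voom (4.37%), 3 without the filter (3.15%), 0 with only the compared groups in the fit (0.908%), and 1 to 2 with 1 library left out (2 without P10 sham replicate 2, with 2.12%). After resection the count of 0 became 1 with DESeq2 (3.63%), 5 with limma-voom (5.62%), 2 without the filter (1.82%) and 1 with only the compared groups (2.34%), and stayed 0 to 0 with 1 library left out. From P2 sham to P10 baseline the count of 0 became 1 with DESeq2 (5.9%), limma-voom (6.39%) or no filter (1.9%), and was 0 to 1 with 1 library left out. It was 0 to 0 for the other 5 comparisons. The following alternatives were chosen after seeing the data. Without the 3 libraries richest in long transcripts the counts were 7 at baseline, 1 after resection (2.69%) and 1 from P2 sham to P10 baseline (4.74%). With a term for length dependence they were 5 for the baseline groups, 5 for the sham groups (6.85%), 2 for the resected groups (2.54%) and 1 from P2 sham to P10 baseline (4.69%). At baseline the share of all genes called was 4.38%, and it was 10.5% with DESeq2, 22.5% with limma-voom, 4% without the filter, 16.8% without the 3 libraries and 10.4% with the length term. The cause of these moves was not tested.

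Values that changed sign belonged to genes not called in those comparisons, the smallest adjusted p among the reversed values being 0.807. Rb1 between the windows was 0.00784 with DESeq2, 0.00793 with RLE size factors, 0.0264 without the filter and 0.0208 with the length term, and -0.22 to 0.16 with 1 library left out. Rb1 after resection was 0.0312 with limma-voom, and -0.27 to 0.0507 with 1 library left out. Ccnd3 after sham surgery was -0.00725 without the 3 libraries, and -0.15 to 0.28 with 1 left out. With 1 library left out, Rb1 was -0.55 to 0.10 at baseline and -0.46 to 0.66 after sham surgery, Ccne2 was -0.11 to 1.63 between resection and sham at P10, and the interaction values were 0.77 to 2.51 for Ccne2, -0.23 to 2.54 for Ccne1 and -0.13 to 0.83 for Cdk6.

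With the replicate number as a replicate block, 8 genes were called between the windows, 3 between the baseline groups, 1 between the sham groups and 0 between the resected groups. The block added Ccnd2 (-0.47, adjusted p = 0.0347) between the windows and Cdk6 (-1.22, adjusted p = 0.0323) at baseline. The block called 17% of all genes between the windows, 6.23% at baseline, 3.93% for the sham groups and 1.15% for the resected groups. The numbers were not taken to pair the libraries, since the labels give no shared origin and deviations of same-numbered libraries had a mean r of 0.057 over 45 pairs (lowest -0.135) against -0.028 over 90 others, though 10 of 18 libraries were closest to their own number, a hint from the data and not the design. The 3 libraries richest in long transcripts all carry the number 1. Depth limits Ccne1 and Ccne2, which had few counts in the P10 libraries, and Rb1, which had few throughout. Dividing by all exon bases instead of the principal transcript, also chosen after seeing the data, moved the D cyclin shares as given beside them.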
